A study of Mus musculus with 12 samples.

Results

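The constitutive proteasome subunits are the genes of the Psma, Psmb, Psmc and Psmd families, which encode the standard 26S proteasome of most cells. They were chosen by name, as every gene whose symbol is one of these family names followed by a number, without the immunoproteasome genes Psmb8, Psmb9 and Psmb10 and the thymus subunit Psmb11, and with a mean of at least 10 normalized counts over the 12 libraries. Of 39 genes so named, 4 were left out by name and 35 were members, out of 24454 genes in the table. All 35 were among the 11476 tested genes, which had to reach that mean. The rule uses no difference between groups, but it was set with earlier results of these data known. Psma8 reached the mean through Δβ SP 2 and Δβ BM 2, libraries of STAT3β-deficient blasts from spleen and bone marrow. It had 241 and 211 normalized counts there and at most 15.2 in every other library, so counts are also given without it.

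The 26S proteasome degrades proteins that carry ubiquitin chains. Its 20S core is a barrel of outer alpha rings, encoded by Psma genes, and inner beta rings, encoded by Psmb genes, of which Psmb5, Psmb6 and Psmb7 carry the chymotrypsin-like, caspase-like and trypsin-like peptidase sites. The 19S regulator binds, deubiquitinates and unfolds substrates with a ring of Psmc ATPases and a set of Psmd subunits. In cells exposed to interferon, Psmb8, Psmb9 and Psmb10 replace Psmb5, Psmb6 and Psmb7 in newly built cores. Cells short of proteasome activity raise the constitutive genes together through the transcription factor NFE2L1.

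The libraries came from acute myeloid leukemia (AML) blasts of a mouse model. Fetal liver cells of wildtype (WT) or STAT3β-deficient (Δβ) mice were transduced with a retrovirus for the fusion oncogene MLL-AF9 coupled to the fluorescent reporter Venus and transplanted into male NSG mice, a strain without mature T, B and NK cells. Both genotypes therefore carried MLL-AF9 and Venus, and the Δβ cells lacked the β isoform of STAT3. Venus-positive blasts were sorted from the spleen (SP) and bone marrow (BM) of diseased recipients, with 3 libraries in each of the groups WT SP, Δβ SP, WT BM and Δβ BM. Whether equal replicate numbers mark the same recipient is not given in the labels, so p-values measure the spread between these libraries, which may be technical.

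Library depth was 9001051 to 13859727 reads on genes, and 1 read was worth 0.775 to 1.17 normalized counts. Stat3, counted over all its isoforms, had log2 fold changes of -0.32 in SP and -0.10 in BM between Δβ and WT, and such gene counts cannot check the loss of the β isoform. The leukemia genes Hoxa9 and Meis1 had at least 798 and 516 normalized counts in every library, and the 4 globin genes of the erythroid list were at 0 in all 12. Of 6 blast genes, 3 were higher and 3 lower in Δβ in each organ, and 0 passed the adjusted test used below. Mpo had the highest log2 fold changes, 1.68 in SP and 1.83 in BM, and Itgam the lowest, -1.06 and -0.19. Mpo was at 5947, 5256 and 40587 normalized counts in WT SP 1, 2 and 3. WT SP 1 and 2 stood apart, with Itgam at 26293 and 21981 normalized counts against 7855 to 16687 in the others and a sum of 7 proliferation genes of 21854 and 30178 against 31194 to 38564 in the others. The ribosomal RNA precursor Rn45s took 2.48% and 2.41% of reads in WT SP 2 and 3 and at most 0.725% in the others. The sum of 8 mature neutrophil genes in SP was 135514 to 315512 for WT and 87596 to 110108 for Δβ, while in BM it was 135821 to 387867 for WT and 106730.0 to 223303 for Δβ. Δβ BM 1 held a sum of 328 normalized counts for 5 T cell genes, with Cd8a at 103, against at most 112 in any other library. The part of these features in the values below was not tested, and in bulk RNA fewer cells of a type and less RNA per cell cannot be told apart.

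Because NFE2L1 acts on proteasome promoters, these were searched for the antioxidant response element core, the motif of NFE2L1 and NFE2L2, written TGACNNNGC and read on both strands from 250 bases before to 50 bases after each RefSeq start (build GRCm38.p6). Of the 35 members, 28 had an entry. Psma8, Psmb1, Psmb2, the catalytic subunit Psmb7, Psmc3, Psmd3 and Psmd7 had none and were not searched. Of the 28, 5 (17.9%) held the core, namely Psmb5, Psmb6, Psmc6, Psmd12 and Psmd9. It was found in 17.1% of 9275 tested genes and in 13.99% of all 27025 genes with an entry. The NF-Y box CCAAT was found in 11 of the 28 (39.3%), against 43.6% of tested genes and 41.1% of all genes. None of the 28 held both motifs, and a match describes letters, not binding. The 100 bases before the start are shown for the catalytic subunits that held the core, which is in capitals and begins at base -47 in Psmb5 (chr14:54617996-54618095, minus strand) and at base -9 in Psmb6 (chr11:70525257-70525356, plus strand):
Psmb5: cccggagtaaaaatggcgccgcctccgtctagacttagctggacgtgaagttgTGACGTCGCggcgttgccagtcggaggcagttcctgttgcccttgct
Psmb6: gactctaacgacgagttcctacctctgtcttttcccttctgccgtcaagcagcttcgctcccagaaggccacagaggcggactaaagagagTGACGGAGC

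The constitutive proteasome was expressed at even levels in all blasts. Together the 35 members took 0.381% to 0.548% of the reads of a library, and all except Psma8 had a mean of at least 178 normalized counts. Over the 12 libraries, genotypes and organs included, the median coefficient of variation of the members was 10.3%, against 15.9% for the 8320 tested genes with a mean of at least 150, and 31 of the 35 lay below that 15.9%. That set was not matched to the members by level, and the part of level and read sampling in the difference was not tested. The steadiest was Psmb3, a structural beta subunit, with a coefficient of variation of 2.74%. It stayed between 411 and 449 normalized counts in all 12 libraries, on 360 to 550 reads each. The part of read sampling in its rank was not tested. The most variable after Psma8 were the alpha subunit Psma5 at 20.99% and the lid subunit Psmd7 at 18.8%.

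**Figure D1:**
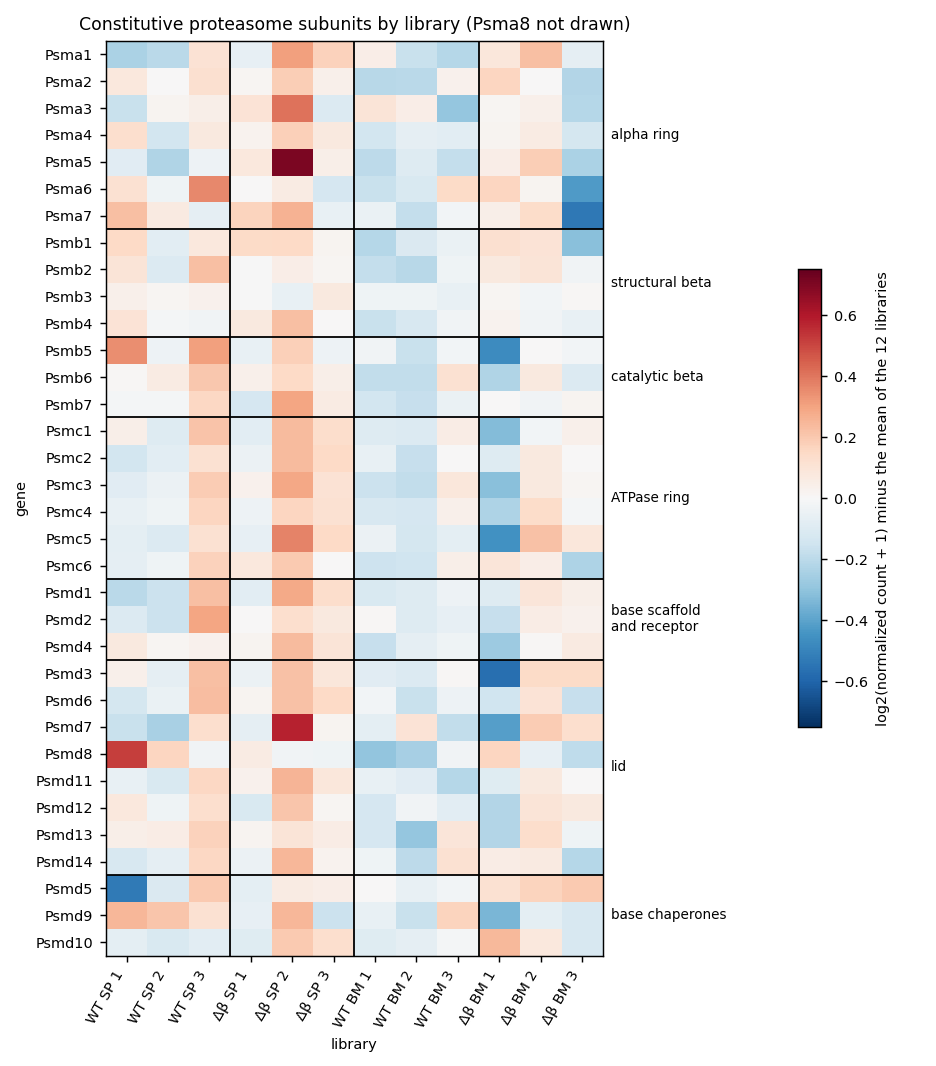
Each row is 1 of the 34 members other than Psma8, grouped by role, and each column is 1 library. Color gives log2(normalized count + 1) minus the mean of that gene over the 12 libraries. Most cells lie near 0, Δβ SP 2 is above the mean for 32 of 34 genes, and WT BM 1 and 2 are above it for 4 and 2 genes.

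Levels were compared between subunits as normalized counts per kb of the transcript named by each gene's RefSeq accession, as means over the 12 libraries. In the core, the alpha ring without Psma8 had a median of 728 per kb over 7 genes, the structural beta subunits 1199.7 over 4 and the catalytic subunits 1273 over 3. In the regulator, the ATPase ring had a median of 1016 per kb over 6 genes, the scaffold and ubiquitin receptor genes Psmd1, Psmd2 and Psmd4 had 932, and the lid had 872 over 8. The chaperones Psmd5, Psmd9 and Psmd10, which assemble the base and leave the finished proteasome, lay below these medians at 194, 129.7 and 343 per kb. Within the alpha ring the level ran from 62.4 per kb for Psma3 to 2655 for Psma7, although their proteins enter the ring in equal numbers.

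Several subunits with a low level share sequence with other genes. For each transcript, the share of 50-base windows that occur identically in a transcript of another gene, pseudogenes included, was counted in GENCODE release M21 (build GRCm38). It was 57.1% for Psmb5, 55.8% for Psmb3 and 55.4% for Psma5, the 3 members above 50%, whose median level was 402 per kb. It was 10% to under 50% for 7 members with a median of 859.5 per kb, among them Psma3 at 22.0% and Psmb7 at 28.1%. The other 24 had a median of 1056 per kb. For Psmb3, all 7 of the genes that share windows are pseudogenes. How reads that match several genes were counted is not given in the sources used here, so the levels of these genes are uncertain. The only gene that shares windows with Psmb7 is Nek6, whose exons it overlaps on the opposite strand by 405 bases. Psmd9 overlaps exons of Gm26745 on the opposite strand by 1849 bases. Reads of such pairs cannot be told apart without strand.

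**Figure D2:**
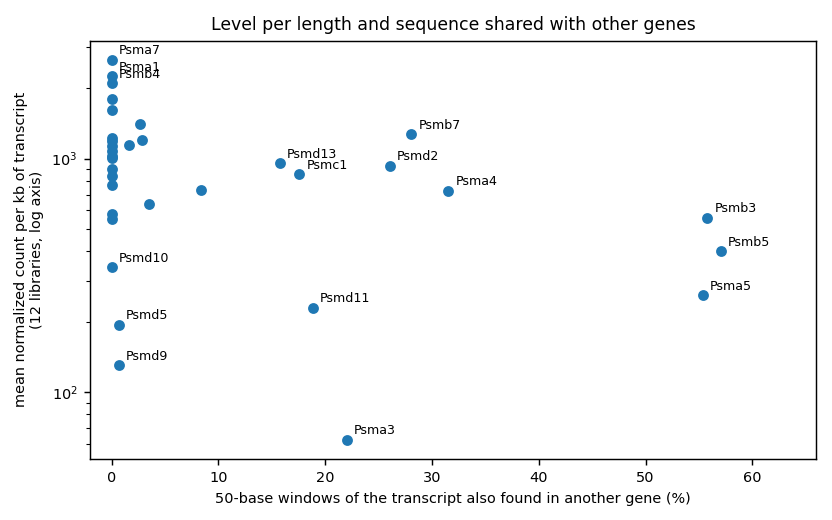
Points are the 34 members other than Psma8. The x axis gives the percent of 50-base windows of the transcript that also occur in another gene, and the y axis, which is logarithmic, the mean normalized count per kb over 12 libraries. The 3 genes above 50% lie between 259 and 557 per kb, while those under 10% reach from 130 to 2655.

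The comparison of Δβ with WT blasts from SP asks whether loss of STAT3β goes with a change of the proteasome. No constitutive subunit passed the test. In limma, fitted over all 11476 genes on log2(normalized count + 1) with Benjamini-Hochberg adjustment, 0 of 35 members had an adjusted p under 0.05, against 0.105% of tested genes, and the lowest adjusted p of a member was 0.342. At an unadjusted p under 0.05, 0 members were higher and 0 lower, where 5.93% of tested genes were higher and 8.96% lower. On the recovered reads edgeR and DESeq2 also called 0 members. Over all 11476 genes DESeq2 called 457, and edgeR called fewer than limma. A fold change above 0 was found for 26 of 35, or 25 of 34 without Psma8 (48.1% of tested genes). The median log2 fold change was 0.07 (0.06 without Psma8), against -0.01 over all tested genes. Quantile normalization gave 31 of 35 above 0, but it also moved the median over all tested genes to 0.04. The share of tested genes above 0 was not counted there. The libraries of the genotypes did not overlap for Psma5, which was higher in Δβ, a pattern of 7.92% of tested genes. None was lower without overlap, where 9.37% of tested genes were.

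Among the members other than Psma8, the alpha subunit Psma5 had the highest fold change in SP. Psma5 (chr3:108256926-108279974, plus strand) had 297, 270.3 and 307 normalized counts in WT SP 1, 2 and 3 and 334, 515 and 326 in Δβ SP 1, 2 and 3. Each Δβ library was above each WT library, and Δβ SP 2 was far above the others. Its log2 fold change was 0.39 (standard error, SE, 0.18, 95% interval -0.01 to 0.79, adjusted p = 0.342 from limma). Psma1 had 2289.5, 2346 and 2907 in WT SP and 2581, 3338 and 3033 in Δβ SP, with groups that overlap and log2 fold change 0.25 (SE 0.14). Psma7, the member with the highest level per kb, had 2811, 2516 and 2290.5 in WT SP and 2704, 2877 and 2313 in Δβ SP, also with overlap. Of the 7 alpha genes other than Psma8, 6 had a fold change above 0, and Psma6 was at -0.17 on the log2 scale.

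The catalytic subunits did not share a direction in SP. Psmb5 (chr14:54614119-54618022, minus strand) had 456, 349 and 442 normalized counts in WT SP and 343, 404 and 348 in Δβ SP, with log2 fold change -0.18 (SE 0.16, 95% interval -0.53 to 0.17). Psmb6 (chr11:70525367-70527858, plus strand) had 1123, 1167 and 1282 in WT SP and 1146, 1240.0 and 1152 in Δβ SP, and the log2 fold change was -0.01 (95% interval -0.27 to 0.25). Psmb7 (chr2:38588036-38644087, minus strand) had 1456, 1456 and 1639 in WT SP and 1347, 1808 and 1536 in Δβ SP, and the log2 fold change was 0.04 (95% interval -0.21 to 0.29). The genotypes overlapped for each of the 3, and their adjusted p-values from limma were 0.576, 0.968 and 0.894. The structural beta subunits Psmb1, Psmb2, Psmb3 and Psmb4 had log2 fold changes between -0.06 and 0.08. Of these, Psmb2 had 1095, 952 and 1194 normalized counts in WT SP and 1018, 1056 and 1031 in Δβ SP, with the Δβ libraries inside the WT range.

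In the regulator, all 6 ATPase genes had a fold change above 0 in SP, with a median log2 value of 0.10. Psmc3 had 2479, 2554 and 3001 normalized counts in WT SP and 2699, 3222 and 2845 in Δβ SP, and Psmc1 had 1402, 1269.7 and 1575 in WT SP and 1287, 1604 and 1494 in Δβ SP. Both overlapped between the genotypes. The ends of the regulator's range were lid subunits. Psmd7 had 1166, 1105 and 1427 in WT SP and 1245, 1951 and 1324 in Δβ SP, with log2 fold change 0.27 (SE 0.20) in which Δβ SP 2 was the high library. Psmd8 (chr7:29174188-29180701, minus strand) had 2440.0, 1901 and 1666 in WT SP and 1778, 1672 and 1662 in Δβ SP, with log2 fold change -0.21 (SE 0.15). WT SP 1 was high and WT SP 3 lay inside the Δβ range.

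The base chaperones differed among themselves. Psmd9 had 397, 386 and 361 normalized counts in WT SP and 320.1, 397 and 299 in Δβ SP, with log2 fold change -0.18 (SE 0.15). Psmd5 had 586, 783 and 968 in WT SP and 802, 884 and 875 in Δβ SP, and the log2 fold change was 0.16, with a wide spread in WT SP. Both overlapped between the genotypes. Psmd10 averaged 459 ± 6.84 (SD, n = 3) normalized counts in WT and 517 ± 52.8 (SD, n = 3) in Δβ. The other lid genes, Psmd3, Psmd6, Psmd11, Psmd12, Psmd13 and Psmd14, lay between -0.03 and 0.13 on the log2 scale, and Psmd1, Psmd2 and Psmd4 between 0.06 and 0.16.

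The intervals give the size of change that 3 libraries per group leave possible. For each of the 34 members other than Psma8, the 95% interval of the SP difference stayed within 1 on the log2 scale in either direction, with a median half-width of 0.28. The outermost bounds were a 0.687-fold level in Δβ for Psmd8 and a 1.73-fold level for Psma5. The count over all genes in SP, 12 in the main fit, depended on single libraries in both directions. Without WT SP 3, 1884 genes (16.4%) passed, but 0 of 35 members were among them, and without Δβ SP 3, 1 gene passed. Without WT SP 1 and 2 the median of the members was -0.04, in an alternative chosen after seeing the data whose 1 remaining WT SP library is assumed to vary like the other groups.

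**Figure D3:**
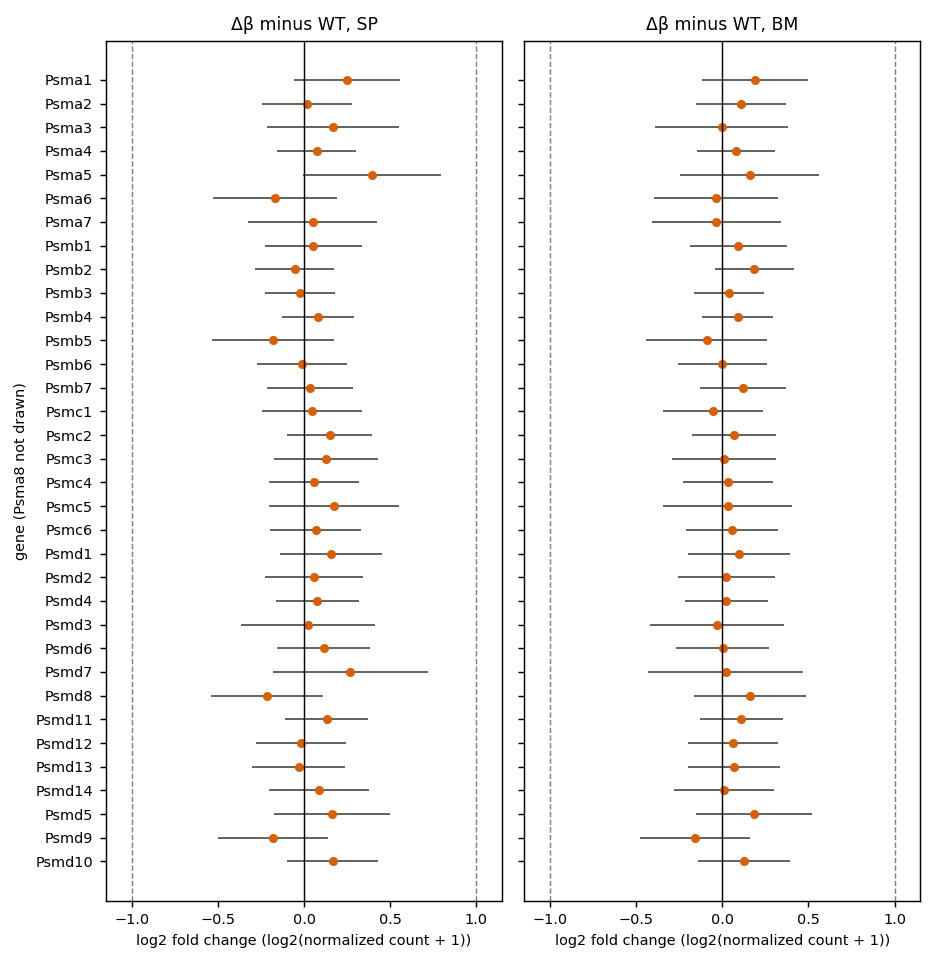
The x axes give the log2 fold change of Δβ over WT in SP and in BM, and each row is 1 of 34 members, without Psma8. Points are limma estimates and lines their 95% intervals from 3 libraries per group. All lines cross 0 and none reaches -1 or 1.

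In BM, too, no constitutive subunit passed. Of the 35 members, 0 had an adjusted p under 0.05 in limma (0.0697% of tested genes did) and the lowest adjusted p was 0.99997. At an unadjusted p under 0.05, 0 were higher and 0 lower, against 1.25% and 1.33% of tested genes. Of the members edgeR and DESeq2 called 0, while over all genes DESeq2 called 37 and edgeR as many as limma. A fold change above 0 was found for 27 of 35, or 26 of 34 without Psma8 (45.3% of tested genes), with a median log2 fold change of 0.06 (0.05 without Psma8) against -0.02 over all tested genes. Without overlap, Psmb2, Psmb3, Psmb7 and Psmd5 were higher, 4 of 35 members against 3.5% of tested genes, and 0 were lower, against 4.13%. The 95% intervals of the 34 members other than Psma8 ran from a 0.717-fold level in Δβ for Psmd9 to a 1.47-fold level for Psma5.

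The 4 members without overlap in BM differed by little. Psmb7 had 1339, 1306 and 1420.0 normalized counts in WT BM and 1478, 1447 and 1495 in Δβ BM, with log2 fold change 0.12 (SE 0.11). Psmb2 had 903, 885 and 1000.03 in WT BM and 1075, 1095 and 1003 in Δβ BM, with log2 fold change 0.19 (SE 0.10). Its highest WT library lay just under its lowest Δβ library. Psmd5 had 848, 814 and 832 in WT BM and 913, 949.7 and 968 in Δβ BM, with log2 fold change 0.18 (SE 0.15). Psmb3 had means of 416 ± 4.01 (SD, n = 3) and 427 ± 5.96 (SD, n = 3). For each of the 4 the adjusted p from limma was at least 0.99997.

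The other named subunits overlapped between the genotypes in BM. Psmb5 had 351, 318 and 352 normalized counts in WT BM and 258, 359 and 352 in Δβ BM, where Δβ BM 1 was the lowest of all 12 libraries. Psmb6 had 982, 983 and 1209 in WT BM and 955, 1173 and 1040.0 in Δβ BM. Psma1 had 2785, 2399.5 and 2326 in WT BM and 2854, 3145 and 2569.8 in Δβ BM, a log2 fold change of 0.19. Its fold change was thus above 0 in both organs, with overlap in each. Psma5 had 276, 295 and 279 in WT BM and 327, 359.8 and 268 in Δβ BM, so that the genotypes, separate in SP, overlapped here. Psma7 had 2324, 2127 and 2371 in WT BM and 2479.9, 2646 and 1658 in Δβ BM, where Δβ BM 3 was the lowest of all 12 libraries. Psmd9 had 321, 297 and 376 in WT BM and 263, 318 and 308 in Δβ BM, a log2 fold change of -0.16, the lowest of the members.

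For several regulator genes, library 1 of Δβ BM was low. Psmc1 had 1274, 1267 and 1413 normalized counts in WT BM and 1084, 1343 and 1397 in Δβ BM. Psmc3 had 2356, 2315 and 2792 in WT BM and 2119, 2769.6 and 2661 in Δβ BM. Psmd7 had 1244, 1403 and 1151 in WT BM and 981, 1494 and 1428 in Δβ BM. For all 3, Δβ BM 1 was the lowest library of the organ. Psmd8 went the other way, with 1383, 1432 and 1669.7 in WT BM and 1904, 1628 and 1491 in Δβ BM, where library 1 was the highest of the organ.

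Blasts of the organs were compared within each genotype, as SP over BM. In WT, 0 of 35 members had an adjusted p under 0.05 in limma, where 0% of tested genes did, and the lowest adjusted p was 0.597. Over all genes, 500 were higher and 449 lower at an unadjusted p under 0.05, edgeR called 0 and DESeq2 called 111, of which 0 were members. At that unadjusted level, Psmd8 was higher in SP and 0 members were lower, against 4.36% and 3.91% of tested genes. Psmd8 had a log2 difference of 0.41 (SE 0.15, 95% interval 0.08 to 0.73, unadjusted p = 0.019 and adjusted p = 0.597 from limma), with WT SP 1 as its highest library. The organs overlapped for it, since WT SP 3 at 1666 normalized counts lay below WT BM 3 at 1669.7. A difference above 0 was found for 31 of 35, or 31 of 34 without Psma8 (50% of tested genes), with a median of 0.11 on the log2 scale. Quantile normalization gave 24 of 35 above 0, with a median over all tested genes of -0.04. The share of tested genes above 0 was not counted there. Psmb3, Psmb7 and Psmd4 were higher without overlap, 3 of 35 members against 5.66% of tested genes, and 0 were lower, against 5.8%.

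In Δβ blasts the median organ difference was 0.12 on the log2 scale, and a difference above 0 was found for 32 of 35 members, or 32 of 34 without Psma8 (50.4% of tested genes). Of the 35, 0 had an adjusted p under 0.05 in limma, where 0% of tested genes did, and the lowest adjusted p was 0.99997. Over all genes, 75 were higher and 128 lower at an unadjusted p under 0.05, edgeR called 0 and DESeq2 called 2. At that unadjusted level 0 members were higher and 0 lower, against 0.654% and 1.12% of tested genes. Without overlap, 0 were higher in SP, against 2.92% of tested genes, and Psmd5 was lower, against 4.51%. Psmd5, which holds ATPases until the base is complete, had log2 differences of -0.12 in WT and -0.15 in Δβ, the lowest in each genotype after Psma8. The highest differences in Δβ were 0.28 for Psma5, 0.24 for Psma7 and 0.22 for Psmc3, and in WT 0.41 for Psmd8, 0.28 for Psmb5 and 0.21 for Psmb2. The organs overlapped for all 6. Δβ libraries with the same number deviated together. In each of the 3 such pairs Psma5, Psma7 and Psmc3 were higher in SP, but they were named for their high differences in these same libraries. How many tested genes were higher in all 3 pairs was not counted. With a block for these pairs among the Δβ libraries alone, an alternative chosen after seeing the data, 0 members had an adjusted p under 0.05 and 1 an unadjusted p under 0.05 in limma.

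Whether the genotypes differed to another extent in SP than in BM was tested as the difference of the genotype contrasts. The fit treats all libraries as independent, although Δβ libraries with the same number deviated together, so its p-values are uncertain. In limma, 0 of 35 members had an adjusted p under 0.05, where 0% of tested genes did, and the lowest adjusted p was 0.926. At an unadjusted p under 0.05, 0 were higher and 0 lower, against 1.25% and 1.95% of tested genes. Over all genes 143 were higher and 224 lower at that level, edgeR called 0 and DESeq2 called 3, of which 0 were members. The value was above 0 for 20 of 35, or 19 of 34 without Psma8 (50% of tested genes), with a median of 0.03 on the log2 scale. It was above 0 for 25 with trimmed-mean scaling and for 29 after quantile normalization. The medians over all tested genes were then 0.02 and 0.04, and the shares of tested genes above 0 were not counted. All 6 ATPase genes were above 0 and all 7 beta subunits below it, none past the test. The lowest value was -0.38 for Psmd8 (SE 0.21).

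The members shared deviations from library to library. The median log2 deviation of the 34 members other than Psma8 from their 12-library means was 0.22 in Δβ SP 2 and 0.14 in WT SP 3, where 32 and 29 of the 34 were above the mean. It was -0.12 in WT BM 2 and -0.10 in WT BM 1, where 2 and 4 were. The pooled SD of the library median within groups was 0.0857. Transcripts of other lengths moved in the same libraries. The 1955 tested genes with a transcript under 1500 bases had a median deviation of 0.12 in Δβ SP 2 and 0.07 in WT SP 3, and the 3248 with one over 4000 bases had -0.14 and -0.11. These libraries had the highest medians of short transcripts and the lowest of long ones among the 12. The median transcript measured 1162.5 bases for core members and 1710.5 for regulator members. The part of transcript length in the members' values was not tested.

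Core and regulator genes parted in a few libraries. In Δβ BM 1, the 14 core genes other than Psma8 had a median deviation of 0.04 and the 20 regulator and base chaperone genes -0.19, a gap of 0.23. The gap was 0.16 in WT SP 1 and -0.13 in Δβ BM 3, and between -0.07 and 0.07 in the other 9 libraries. In Δβ BM 1 the member with the lowest deviation was the lid subunit Psmd3 at 1108 normalized counts, against 1524 to 1914 in the others, and in Δβ BM 3 it was Psma7. Δβ BM 1 is also the library with the highest T cell sum and WT SP 1 the one with the lowest proliferation sum, and the part of these features was not tested. WT SP, Δβ SP and Δβ BM each held gaps of both signs, and the gaps of WT BM were -0.07, -0.03 and -0.02.

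**Figure D4:**
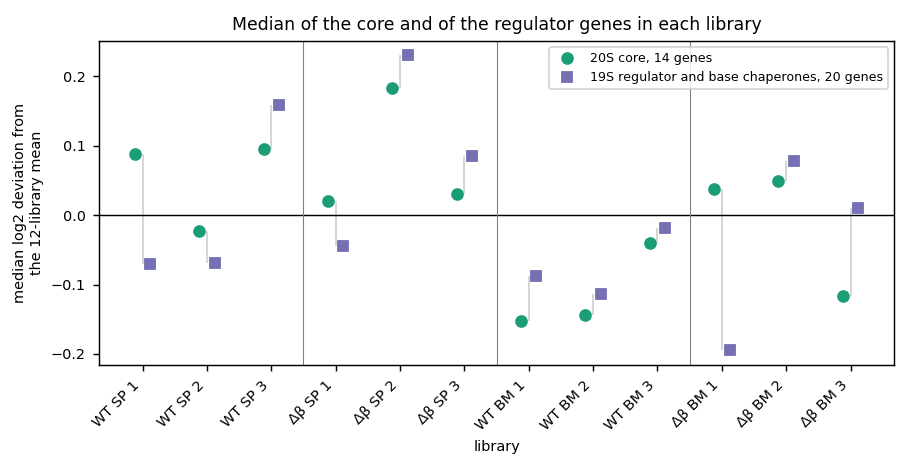
For each of the 12 libraries, the circle and the square give the median log2 deviation from the 12-library mean of the 14 core genes and of the 20 regulator and base chaperone genes, respectively. The medians lie within 0.07 of each other in 9 libraries and are 0.23 apart in Δβ BM 1.

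Psma8 was unlike the other members. It encodes the alpha subunit that takes the place of Psma7 in the proteasome of male germ cells. It was listed at 0 in all 3 WT SP libraries and had 0.775, 241 and 0 normalized counts in Δβ SP 1, 2 and 3. In BM it had 0.992, 11.3 and 0 in WT 1, 2 and 3 and 15.2, 211 and 0 in Δβ 1, 2 and 3. It was thus high in both Δβ libraries numbered 2 and low or at 0 in the other 10. A count of 3 reads is worth 2.33 to 3.50 normalized counts, and 4 of the 12 libraries were above that. Its fitted differences depend on the added count of 1 and are not given. None of its 1643 windows of 50 bases occurs in another gene. Its neighbours did not share the pattern to that extent, as Ss18 had 856 to 1113 normalized counts over the 12 libraries, and Taf4b had 202 and 140.2 in Δβ SP 2 and Δβ BM 2 against 83.2 to 151 in the other 10.

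The immunoproteasome counterparts had larger fold changes than the subunits they replace. Psmb8, Psmb9 and Psmb10 had log2 fold changes of 0.87, 1.25 and 0.83 in SP and 0.54, 0.74 and 0.59 in BM. Each had an unadjusted p under 0.05 in both organs, but none an adjusted p under 0.05 in limma. At that unadjusted level 5.93% of tested genes were higher in SP and 1.25% in BM. Set against its constitutive counterpart, Psmb9 had a ratio to Psmb6 of 0.461, 0.483 and 0.526 in WT SP and 1.36, 1.64 and 0.727 in Δβ SP, with means of 0.490 ± 0.0329 and 1.24 ± 0.468 (SD, n = 3). In BM the means were 0.477 ± 0.0543 and 0.830 ± 0.278. The ratio of Psmb8 to Psmb5 was 5.02 ± 0.540 in WT SP and 10.5 ± 2.34 in Δβ SP, and 5.47 ± 0.402 and 8.57 ± 1.54 in BM. For both pairs each Δβ library was above each WT library of the same organ. The ratio of Psmb10 to Psmb7 was 0.662 ± 0.197 and 1.146 ± 0.312 in SP and 0.585 ± 0.106 and 0.821 ± 0.236 in BM, with overlap.

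These ratios were compared with a two-sided exact permutation test of 3 against 3 libraries, which cannot go below p = 0.1. It gave p = 0.1 for Psmb9 to Psmb6 and for Psmb8 to Psmb5 between the genotypes in each organ, and an exact p = 0.2 for Psmb10 to Psmb7 in each. Adjusted over the 12 comparisons of 3 pairs by genotype and organ, these were 0.3 and 0.343. Between the WT organs the exact p was 0.8, 0.6 and 0.3, in the order Psmb9, Psmb10 and Psmb8. Between the Δβ organs the same test, which ignores the pairing of libraries, gave an exact p of 0.3, 0.2 and 0.3, and in each of the 3 pairs all 3 ratios were higher in SP. Because Psmb5 shares windows with other genes, the size of its ratio is uncertain. Psmb9 overlaps exons of Tap1 on the opposite strand by 212 bases and shares 12.5% of its windows with it. Psmb8 overlaps those of Gm20496 by 498 bases. Without strand such reads cannot be told apart, so these ratios are uncertain too.

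**Figure D5:**
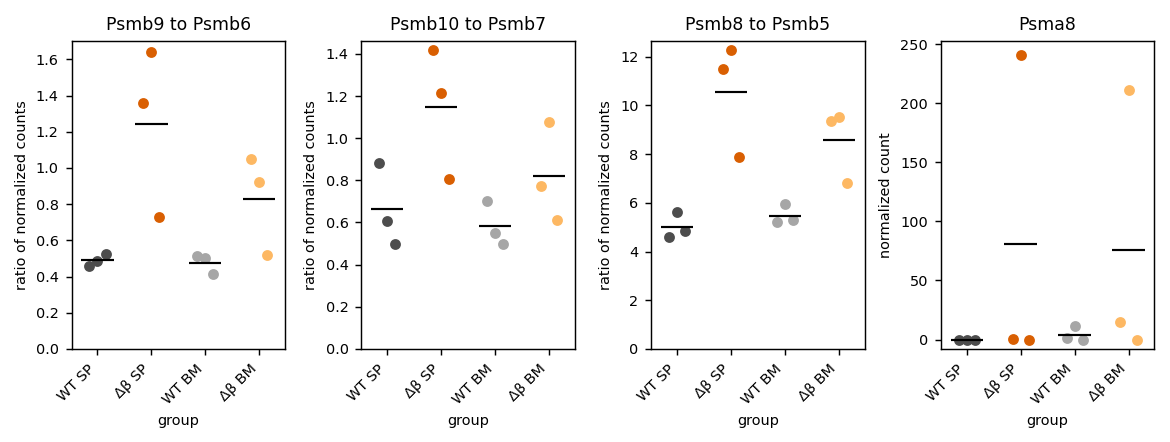
Panels give, per library, the ratio of the normalized count of an immunoproteasome gene to that of the constitutive gene it replaces, and the normalized count of Psma8. Points are libraries of the 4 groups, with replicates 1 to 3 from left to right, and bars are group means. Psmb9 to Psmb6 is 0.461 to 0.526 in WT SP and 0.727 to 1.64 in Δβ SP, and Psma8 is at 241 in Δβ SP 2 and 211 in Δβ BM 2 and at most 15.2 in the other 10.

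Genes that act with the proteasome were counted as whole lists, and 0 genes of any list had an adjusted p under 0.05 in limma in the 5 contrasts. Of the 5 activator and inhibitor genes, Psme1 and Psme2, PA28 subunits induced by interferon, had an unadjusted p under 0.05 in SP. Both were higher in Δβ, where 5.93% of tested genes were higher at that level. Psme2 had 514, 407 and 428 normalized counts in WT SP and 829, 1088 and 626 in Δβ SP, and the log2 fold change was 0.88. It shares 59.3% of its windows with other genes. Psme1 overlapped between the genotypes, with a log2 fold change of 0.47. Psme3, Psme4 and Psmf1 were at 0.13, -0.14 and -0.11. In BM none of the 5 passed the unadjusted level, and between the organs Psme2 did in Δβ, with a log2 difference of 0.57. In that contrast 0.654% of tested genes were higher in SP at the unadjusted level.

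Of the assembly chaperones, all except Paaf1 were tested, and of these 6 genes 6 had a fold change above 0 in SP and 2 in BM. Over all tested genes the share above 0 was 48.1% in SP and 45.3% in BM. Psmg2, which pairs with Psmg1 to build the alpha ring, had an unadjusted p under 0.05 in SP, with 246, 272 and 404 normalized counts in WT SP and 379, 470.5 and 393 in Δβ SP. The genotypes overlapped through WT SP 3, and 5.93% of tested genes were higher in SP at that unadjusted level. Pomp, which matures the beta ring, was at 0.07 on the log2 scale. In the same contrast all 7 proliferation genes had a fold change above 0, with a median of 0.31, and all 8 mature neutrophil genes had one below 0, with a median of -1.20. Their part in the values was not tested.

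The genes that control proteasome transcription did not pass the test. Nfe2l1 had log2 fold changes of -0.06 in SP and -0.19 in BM. Of the 8 genes of the list, 7 were below 0 in each organ, and Keap1, which holds NFE2L2 for degradation, was above 0 in both. Over all 11476 tested genes, 5955 were below 0 in SP and 6277 in BM. None of the 8 passed an unadjusted p of 0.05 in limma in any of the 5 contrasts. The same held for the 7 tested proteasome-bound proteins, such as the ubiquitin receptor Adrm1 and the deubiquitinases Usp14 and Uchl5, and for the 8 tested substrate shuttles and segregase genes, among them Vcp.

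Among ubiquitin and E1 genes, Ubb, which encodes a polyubiquitin, had 74.4, 89.0 and 83.6 normalized counts in WT BM and 39.1, 64.2 and 32.1 in Δβ BM, without overlap. Its log2 fold change in BM was -0.91 (SE 0.33), with unadjusted p = 0.02 and adjusted p = 0.99997 from limma. Of tested genes, 4.13% were lower in BM without overlap and 1.33% at an unadjusted p under 0.05. In SP it was at -0.05 on the log2 scale. Of its windows, 61.0% occur in other genes, so its level is uncertain. The E1 enzyme Uba1, which starts ubiquitin transfer, had log2 fold changes of 0.04 in SP and 0.15 in BM.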

How the data were processed

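RNA of sorted Venus-positive blasts was enriched for poly-A and sequenced, and the study's notes name FastQC, STAR, featureCounts and DESeq2 with build GRCm38 (mm10), without versions. The authors deposited normalized counts per gene, a signal equal to read counts divided by a size factor for each library. The header lacks a field for gene names, so columns were matched after shifting it, and 6 value columns that match no sample label were not used. Dividing by the value of 1 read returned whole reads for 100% of values (tolerance 0.0001).

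The deposited values were analysed with limma 3.58.1 (R 4.3.3), with trend, on log2(normalized count + 1), for 11476 genes with a mean of at least 10, with 1 mean for each genotype and organ and a threshold of 0.05 on the Benjamini-Hochberg adjusted p. The procedure was tested on simulated data. Alternatives were edgeR 4.0.16 and DESeq2 1.42.0 on the recovered reads, other pseudocounts, filters and scalings, a replicate block, and each library left out. Members and lists were chosen with earlier results of these data known. Values in every library are given for the catalytic subunits, for the members with the 3 highest and the 3 lowest fold changes in each genotype and organ contrast and for Psma8. The library values of Psme2, Psmg2 and Ubb and the values of Psmb3, Psmd3 and Psmd10 were chosen after they were seen. The results for 1 gene are not reported here. Transcripts and annotation came from GENCODE M21 and promoters from RefSeq.

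Deviations from group means were correlated over all tested genes to see whether replicate numbers pair libraries. Between Δβ SP and Δβ BM, libraries with the same number had r = 0.66, 0.61 and 0.63. Between WT SP and WT BM they had -0.01, -0.04 and -0.24, and between the genotypes 0.20, -0.17 and -0.01 in SP and 0.13, -0.08 and -0.09 in BM. The numbers therefore pair libraries in the Δβ organ comparison, for which a replicate block was run as an alternative, and all other values are from fits without a block. The difference of genotype contrasts holds the same paired libraries, and its fit treats them as independent. A block over all 12 libraries gives both genotypes the same effect for a number, so it does not describe a pairing seen in Δβ only. Depth limits low genes such as Psma8, for which 3 reads were taken as the floor.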

Additional observations from a re-analysis of the deposited data

How the results depend on the processing

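The number of members past the adjusted threshold was 0 in all 5 contrasts under every alternative run, including the replicate block, edgeR, DESeq2 and each of the 12 libraries left out. The replicate block leaves fold changes as they are by construction in this balanced design, with medians of 0.068, 0.057, 0.111, 0.118 and 0.026 (genotype in SP, genotype in BM, organ in WT, organ in Δβ, difference of genotype contrasts). For the organ contrast in Δβ, where the numbers pair libraries, a block among the Δβ libraries alone, added after seeing the data, also called 0 members, and 1 had an unadjusted p under 0.05. The fit on only the 6 libraries of a contrast cannot be made for the difference of contrasts. With 1 library left out, the medians ranged from 0.017 (without Δβ SP 2) to 0.126 (without WT SP 3) for genotype in SP, from 0.005 (without Δβ BM 2) to 0.096 (without Δβ BM 1) in BM, from 0.036 (without WT SP 3) to 0.144 (without WT SP 2) for organ in WT, from 0.061 (without Δβ SP 2) to 0.175 (without Δβ SP 1) for organ in Δβ, and from -0.033 (without Δβ SP 2) to 0.086 (without WT SP 3) for the difference. Quantile normalization moved the SP median to 0.197. Leaving out WT SP 1 and 2, also added later, with the lone WT SP library assumed to vary like the other groups, moved it to -0.043, the WT organ median to 0.219 and the difference to -0.106. The causes were not tested. Members with an unadjusted p under 0.05 numbered up to 4 in SP (without WT SP 3) and in the WT organ contrast (without WT BM 3). Of 1410 values of single members under alternatives, 1391 kept their size within the spread and 19 moved. A change of sign would have been counted only for a member past the adjusted threshold. No member passed it, so how often signs changed was not counted. The lowest adjusted p from limma was 0.0578, for Psmd8 between WT organs without WT SP 3. Over all genes, DESeq2 called 457, 37, 111, 2 and 3 genes in the 5 contrasts against 12, 8, 0, 0 and 0 by limma and 4, 8, 0, 0 and 0 by edgeR. The replicate block called 2 and 5 in the genotype contrasts. Without WT SP 3, 1884 genes passed for genotype in SP and 598 for organ in WT.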
